A study of Rattus norvegicus with 6 samples.

Results

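Ephrins, semaphorins, netrins and Slits, together with their receptors and some of their cytoplasmic partners, were compared between rat endometrial epithelial organoids (rEEOs) and rat bone marrow mesenchymal stem cells (rBMSCs). The genes were chosen by symbol, as ephrins and Eph receptors, semaphorins, plexins, Plxdc genes, neuropilins, Slits and Robos with the Srgap genes, netrins and repulsive guidance molecules (RGMs) with their receptors, and Dpysl genes, with a sum of at least 10 counts over the 6 libraries. The matching itself used only symbols and the summed counts. Of 13728 genes in the expression table analysed here, 63 had such a symbol and 54 also reached the sum. Shares and rankings within a family cover these genes only, since the table as held is not complete. The other 9 symbols (Epha5, Epha7, Epha8, Ephb1, Plxdc1, Plxnb3, Robo3, Sema5b and Ntn5) had between 1 and 9 counts in all.

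Bulk RNA-seq was conducted on 3 rEEOs and 3 rBMSCs libraries to distinguish the cells that the study had compared for repair of the injured endometrium. The rEEOs were grown from glandular fragments of the uteri of female SD rats (5 weeks old), in Matrigel, in a medium that held noggin, EGF, FGF10, Wnt activators and inhibitors of ROCK and Alk. The rBMSCs were purchased cells carrying red fluorescent protein, grown in dishes with serum, and the age and sex of their donors are not given in the sources used here. Cell type, medium and culture format therefore cannot be told apart, and since nothing states that the 3 libraries of a cell type came from separate cultures or animals, the p-values measure the spread between these libraries, which may be technical.

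Guidance molecules were named for steering growing axons, and the same proteins position cells, shape vessels and set boundaries in epithelia. Ephrin-A ligands are tethered to the membrane by a lipid anchor and bind mainly EphA receptor tyrosine kinases, whereas ephrin-B ligands span the membrane and bind mainly EphB receptors. Class 3 semaphorins are secreted and act through neuropilins and plexins, class 4 to 7 semaphorins are held at the membrane, netrins act through Dcc, neogenin and Unc5 receptors, and Slits act through Robo receptors.

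The libraries held 14892115 to 15421501 expected counts for rBMSCs and 10457958 to 13883993 for rEEOs, and the guidance genes took 0.409% to 0.44% and 0.215% to 0.331% of them. The median gene varied more among rEEOs (SD 0.34 of log2 CPM) than among rBMSCs (SD 0.088), and the SD in rEEOs was 0.164 without replicate 1. Markers followed the labels: the 13 gland epithelium markers summed to 5431 to 6173 TPM (transcripts per 1e6 transcripts, a level per length) in rEEOs against at most 3.62 TPM in rBMSCs, and the 13 mesenchymal markers to 42700 to 45114 TPM in rBMSCs against 270.6 to 336.1 TPM for rEEOs. Pdgfrb, Thy1, Lum and Dcn were at 0 in every rEEOs library, and the mesenchymal sum there was mostly Vim and Cd44. Dcn and Nt5e were low in rBMSCs as well, at 0.43 to 0.67 TPM and 0.69 to 1.23 TPM. In rBMSCs the smooth muscle list summed to 5997 to 6749 TPM, most of it Acta2. The list of neurons and glia summed there to 188.3 to 196.9 TPM, most of it Stmn2, and the endothelial list to 9.39 to 11 TPM, most of it Erg. Each of these 3 lists was at or below 12.9 TPM in rEEOs. Only 5 of the 7 smooth muscle genes, 3 of the 11 genes of neurons and glia and 6 of the 10 endothelial genes were held. A low sum therefore covers the genes held and does not show that a cell type was absent. The part of these markers in the guidance results was not tested, and in bulk samples fewer cells of a type and less RNA per cell cannot be told apart.

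Of the 54 guidance genes, 49 passed the filter on low counts (10 counts in at least 3 libraries). A gene was called with an absolute log2 fold change over 2 and an adjusted p under 0.05 in edgeR's quasi-likelihood test with Benjamini-Hochberg adjustment over all 10607 genes tested. Compared to rBMSCs, rEEOs had 12 guidance genes called higher (24.5% of those tested) and 19 called lower (38.8%), whereas 16.3% of all genes were called higher and 13.3% lower. In either direction this was 31 of 49 (63.3%) against 29.7% of all genes. By the adjusted p alone, with smaller fold changes, a further 3 genes were higher and 6 lower, and 9 did not pass the test. Counting every gene past the adjusted p gave 15 higher and 25 lower, whereas 33.3% of all genes were higher and 30.2% lower. The median log2 fold change was -0.93 for the guidance genes, also with genes at 0 counts set to their bounds, and 0.08 for all genes. The TPM ranges of the cell types did not overlap for 44 of the 49 genes, against 69.6% of all genes tested. By role, 3 ephrins, 3 Eph receptors, 5 semaphorins and 1 plexin were called higher, and no netrin receptor, RGM, netrin, Slit, Robo, Srgap or Dpysl gene was.

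**Figure D1:**
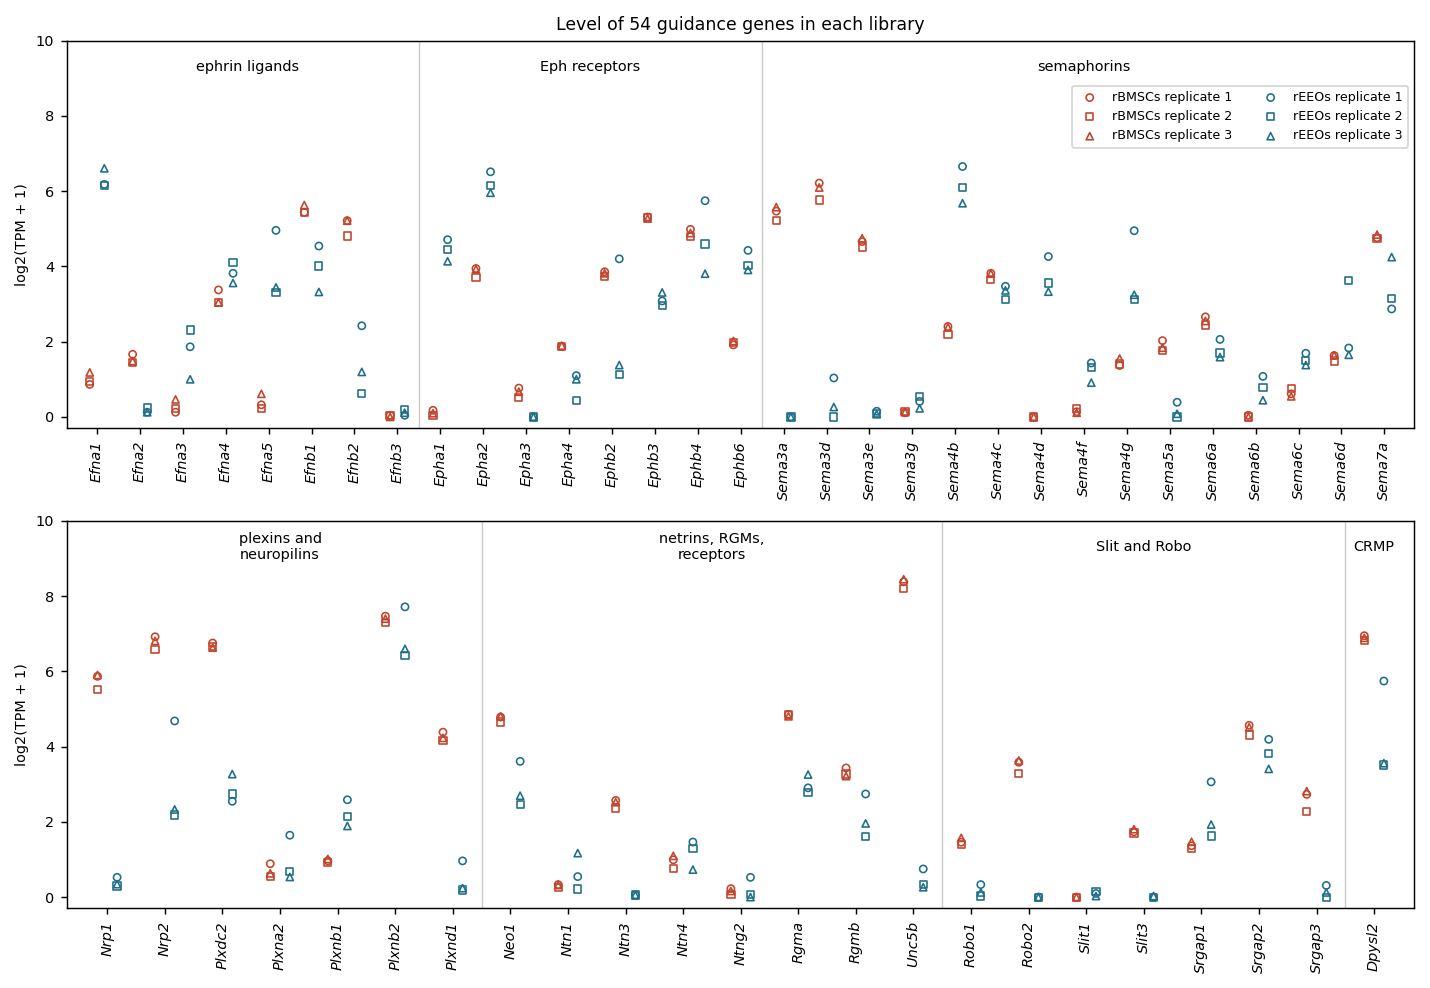
Level of each of the 54 guidance genes as log2(TPM + 1) in each library, grouped by role, with rBMSCs in red, rEEOs in blue and 1 marker shape per replicate. Unc5b, at 292.5 to 348.9 TPM in rBMSCs, had the highest points, and Efna1, Epha2 and Sema4b stood above rBMSCs in all 3 rEEOs libraries.

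**Figure D2:**
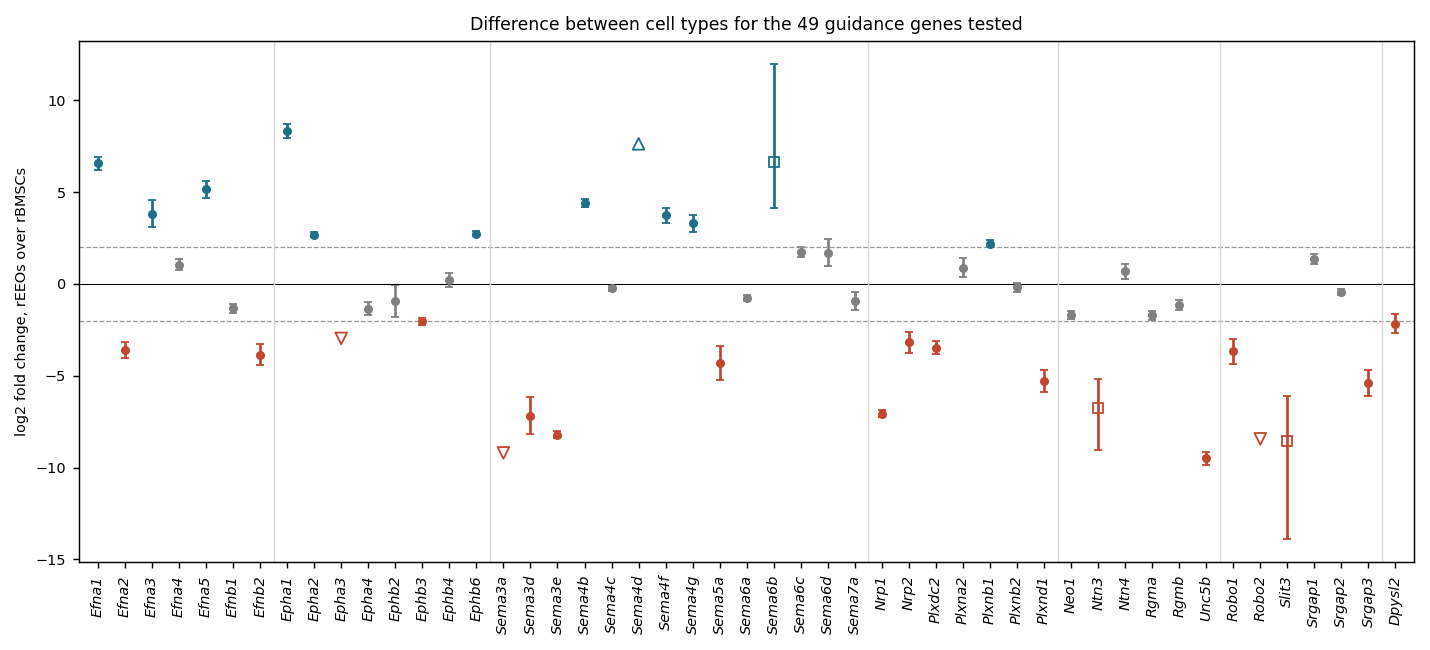
Log2 fold change of rEEOs over rBMSCs for the 49 genes tested, grouped by role, with genes called higher in blue, called lower in red and not called in grey. Filled circles are edgeR estimates with their SE, triangles are lower bounds where a cell type had 0 counts, squares are ratios of pooled counts with 95% exact intervals where it had 1 to 3 counts, and dashed lines mark 2 and -2. The 12 blue symbols are ephrins, Eph receptors, semaphorins and Plxnb1.

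Promoter windows show the start regions of the called genes with the highest mean TPM that had a single window, as RefSeq gives them for the GRCr8 build. Efna1 (chr2:176986822-176987071, minus strand) and Epha2 (chr5:158888379-158888628, plus strand) were called higher in rEEOs, and Unc5b (chr20:29307271-29307520, minus strand) and Nrp2 (chr9:71617004-71617253, plus strand) were called lower. The 250 bases before the start are printed 5′ to 3′, with capitals marking the GC box GGGCGG or its reverse complement CCGCCC.
Efna1: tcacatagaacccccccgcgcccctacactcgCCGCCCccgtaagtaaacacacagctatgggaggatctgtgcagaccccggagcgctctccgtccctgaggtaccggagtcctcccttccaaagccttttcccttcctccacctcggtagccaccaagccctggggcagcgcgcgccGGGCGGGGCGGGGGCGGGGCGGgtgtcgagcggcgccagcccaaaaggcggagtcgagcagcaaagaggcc
Epha2: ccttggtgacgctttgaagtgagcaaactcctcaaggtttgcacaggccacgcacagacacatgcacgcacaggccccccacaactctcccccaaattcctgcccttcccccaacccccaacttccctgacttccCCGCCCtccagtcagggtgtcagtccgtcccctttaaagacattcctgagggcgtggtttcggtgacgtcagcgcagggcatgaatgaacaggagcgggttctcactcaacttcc
Unc5b: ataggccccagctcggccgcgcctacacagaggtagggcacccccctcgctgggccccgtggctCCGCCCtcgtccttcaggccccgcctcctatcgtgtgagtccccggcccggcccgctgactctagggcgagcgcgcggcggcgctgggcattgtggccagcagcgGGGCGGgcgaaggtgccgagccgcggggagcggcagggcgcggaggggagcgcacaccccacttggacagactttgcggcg
Nrp2: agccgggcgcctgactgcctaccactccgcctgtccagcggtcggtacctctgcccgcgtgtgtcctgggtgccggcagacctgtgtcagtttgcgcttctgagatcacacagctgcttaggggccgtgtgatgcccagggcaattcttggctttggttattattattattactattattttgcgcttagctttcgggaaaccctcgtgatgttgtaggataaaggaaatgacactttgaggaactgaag
Efna1 had 5 GC boxes, of which neighbours share bases, Unc5b had 2, Epha2 had 1 and Nrp2 had 0. Over windows of 300 bases (50 bases past the start included), searched on both strands, 44 of the 54 guidance genes matched 46 windows. A GC box was in 58.7% of these and in 33.1% of all 33469 RefSeq windows, in 6 of 10 windows of genes called higher and in 7 of 16 windows of genes called lower. The E-box CACCTG was in 17.4% of the guidance windows and 18.8% of all windows, and TATAAA was in 0 of 46 and 14.2%. The median share of G and C bases was 64.0% in the guidance windows and 51.7% in all windows. The part of this base composition in the motif shares was not tested. In the 4 windows shown, neither CACCTG nor TATAAA was found, and no GC box overlapped another motif.

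Of the 5 ephrin-A genes, which were all tested, 3 were called higher in rEEOs and 1 lower, and of the 2 ephrin-B genes tested, 1 was called lower and the other was lower by the adjusted p alone. Efna1, a ligand of EphA2, had 71.5, 70.5 and 96.6 TPM in rEEOs replicates 1 to 3 and 0.82, 0.93 and 1.27 TPM in rBMSCs. Its lowest rEEOs library was above its highest rBMSCs library, with a log2 fold change of 6.56 ± 0.34 (SE) and an edgeR adjusted p of 2.04e-05. Efna5, another ephrin-A ligand, had 30.1, 8.87 and 9.87 TPM in rEEOs and 0.25, 0.17 and 0.53 TPM in rBMSCs. The groups did not overlap (log2 fold change 5.14 ± 0.45, edgeR adjusted p = 0.000152), and replicate 1 was the highest rEEOs library. Efna3 was called higher at lower levels (1.0 to 3.95 TPM in rEEOs, at most 0.38 TPM in rBMSCs), with a log2 fold change of 3.82 ± 0.74 that became 3.17 without rEEOs replicate 2 and 4.47 without rBMSCs replicate 3. Efna4 had 10.8 to 16.1 TPM in rEEOs and 7.18 to 9.38 TPM in rBMSCs, with a log2 difference of 1.04 ± 0.29 that passed the adjusted p but did not without rBMSCs replicate 2 or 3 (edgeR adjusted p = 0.0717 and 0.0787). Efna2 went the other way, at 1.72 to 2.17 TPM in rBMSCs and at most 0.18 TPM in rEEOs, with a log2 fold change of -3.59 ± 0.45.

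Efnb1 was the ephrin with the highest level in rBMSCs, at 42.4, 42.5 and 48.6 TPM, and had 22.3, 15.1 and 9.0 TPM in rEEOs. The groups did not overlap, but the log2 fold change of -1.32 ± 0.25 (edgeR adjusted p = 0.00379) was short of the threshold for a call. Efnb2, the ligand of EphB4 and a marker of arterial endothelium, had 36.2, 27.0 and 36.2 TPM in rBMSCs and 4.36, 0.55 and 1.29 TPM in rEEOs. Each rEEOs library was below each rBMSCs library, with a log2 fold change of -3.86 ± 0.56 (edgeR adjusted p = 0.00126) and of -4.70 without rEEOs replicate 1. The ephrin-A share of summed ephrin TPM was 13.9%, 12.8% and 11.7% in rBMSCs and 81.5%, 86.3% and 91.9% in rEEOs. The summed ephrin TPM itself was 79.7 to 96.0 in rBMSCs and 115.4 to 144.1 in rEEOs.

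**Figure D3:**
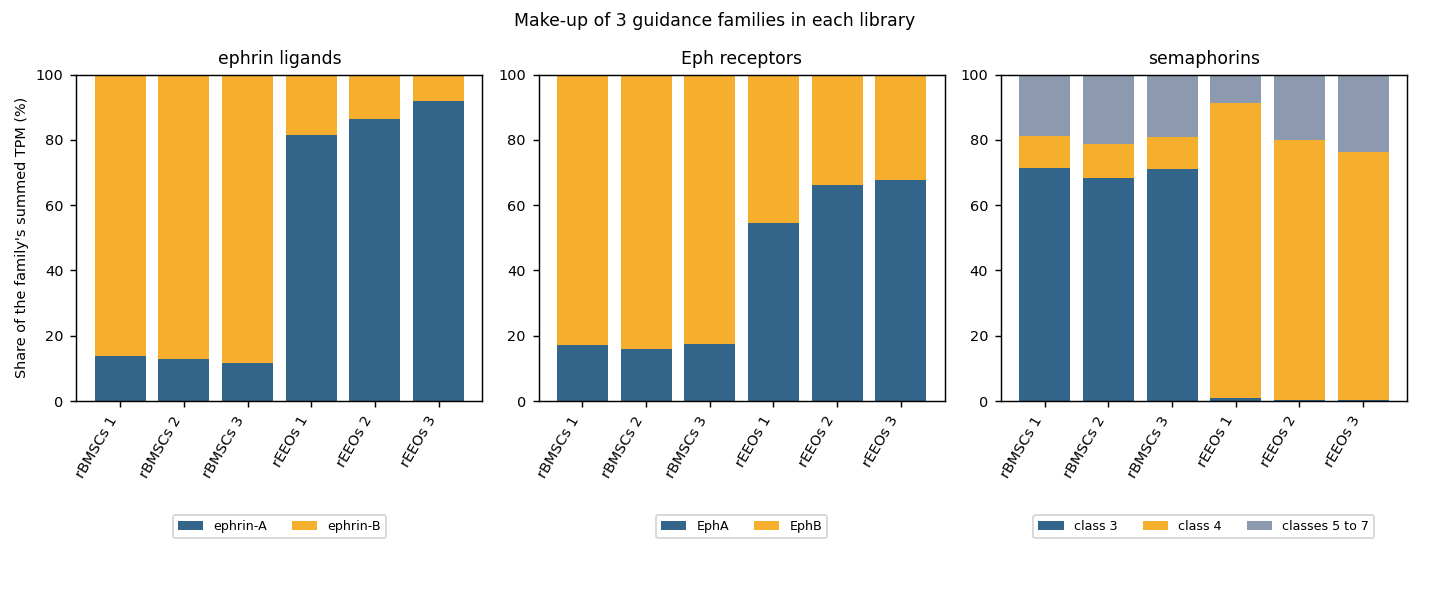
Share of summed TPM, in percent, taken by ephrin-A and ephrin-B ligands, by EphA and EphB receptors, and by class 3, class 4 and class 5 to 7 semaphorins, with 1 bar per library. The ephrin-A share is 11.7% to 13.9% for rBMSCs against 81.5% to 91.9% for rEEOs. Class 4 genes take 76.0% to 90.3% of the TPM of the semaphorins held in rEEOs.

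Among the 8 Eph receptors, 3 were called higher in rEEOs, 2 were called lower, 1 was lower by the adjusted p alone and 2 did not pass the test. Epha2, a receptor of ephrin-A1 found in many epithelia, had 90.5, 69.9 and 61.2 TPM in rEEOs and 14.4, 12.1 and 14.2 TPM in rBMSCs. It was the most abundant Eph receptor of rEEOs, and its groups were clearly apart (log2 fold change 2.68 ± 0.14, edgeR adjusted p = 2.12e-05). Epha1, a related receptor, had 25.2, 21.0 and 16.6 TPM in rEEOs and at most 0.13 TPM in rBMSCs, where its counts were 4, 1 and 2. All rEEOs libraries were above the rBMSCs libraries, with a log2 fold change of 8.33 ± 0.37 (edgeR adjusted p = 1.3e-05) and of 8.92 without rBMSCs replicate 1. Ephb6, which lacks kinase activity, had 20.5, 15.3 and 14.0 TPM in rEEOs and 2.77, 2.92 and 3.05 TPM in rBMSCs. The levels were separate, with a log2 fold change of 2.74 ± 0.14 and an edgeR adjusted p of 2.16e-05.

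Ephb3, a receptor known for placing cells along intestinal crypts, led the Eph receptors of rBMSCs at 38.8, 38.6 and 37.7 TPM and had 7.47, 6.84 and 8.91 TPM in rEEOs. The groups did not overlap, and the log2 fold change of -2.04 ± 0.20 (edgeR adjusted p = 0.000218) was just past the threshold, at -1.86 without rEEOs replicate 1. Epha3 had 29, 18 and 25 counts in rBMSCs (0.42 to 0.70 TPM) and 0 counts in each rEEOs library, so it was at least 7.83-fold lower against a floor of 3 counts per library. Epha4 was lower by the adjusted p alone, at 0.35 to 1.14 TPM in rEEOs and 2.65 to 2.72 TPM in rBMSCs, and it did not pass when any 1 rBMSCs library was left out (edgeR adjusted p 0.0523 to 0.0562). Ephb2 had 13.5, 12.3 and 13.1 TPM in rBMSCs and 17.4, 1.18 and 1.6 TPM in rEEOs, so replicate 1 was above all rBMSCs libraries and the other rEEOs libraries were below them. Its log2 fold change of -0.93 ± 0.86 did not pass (edgeR adjusted p = 0.37), whereas without rEEOs replicate 1 it was -2.79 (edgeR adjusted p = 1.9e-05) and the gene was called lower. Ephb4, the receptor of ephrin-B2, had 30.7, 26.7 and 28.6 TPM in rBMSCs and 52.7, 23.2 and 13.0 TPM in rEEOs. Its groups overlapped (edgeR adjusted p = 0.656), and the sign of its log2 fold change turned from 0.20 to -0.22 without rEEOs replicate 1. EphA genes made up 17.3%, 15.9% and 17.6% of Eph receptor TPM in rBMSCs and 54.4%, 66.2% and 67.8% in rEEOs.

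Among the semaphorin genes held, different classes were high in the 2 cell types. Sema3b, Sema3c, Sema3f and Sema4a were not among the genes held, so the levels of class 3 and of class 4 as a whole are not known here. All 3 class 3 genes tested (Sema3a, Sema3d and Sema3e) were called lower in rEEOs, and 4 of the 5 class 4 genes held (Sema4b, Sema4d, Sema4f and Sema4g) were called higher. Sema3g, also of class 3, did not pass the filter and went the other way at low levels. It had 0.17 to 0.45 TPM in rEEOs and 0.08 to 0.11 TPM in rBMSCs. Sema3a, the secreted ligand that binds neuropilin-1, had 43.3, 36.3 and 46.7 TPM in rBMSCs and 0 counts in every rEEOs library. Against 3 counts per rEEOs library it was at least 588.8-fold lower. Sema3d, a secreted semaphorin known from heart and vessel development, was the most abundant semaphorin of rBMSCs at 73.3, 53.5 and 67.5 TPM and had 1.05, 0 and 0.2 TPM in rEEOs. The groups were apart in every library (log2 fold change -7.17 ± 0.99, edgeR adjusted p = 0.00104), and the value without rEEOs replicate 1 was -8.85. Sema3e, which binds plexin-D1 without a neuropilin, had 24.3, 21.9 and 25.9 TPM in rBMSCs and 0.11, 0.06 and 0.05 TPM in rEEOs. The rEEOs values rest on 6, 3 and 4 counts, and the log2 fold change was -8.21 ± 0.20 (edgeR adjusted p = 4.1e-06).

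Sema4b, a transmembrane semaphorin, was the most abundant semaphorin of rEEOs, with 99.9, 67.7 and 50.3 TPM against 4.29, 3.55 and 4.21 TPM in rBMSCs. Every rEEOs library was above every rBMSCs library, with a log2 fold change of 4.39 ± 0.21 (edgeR adjusted p = 1.51e-05). Sema4d, a ligand of plexin-B1, had 18.2, 10.8 and 9.05 TPM in rEEOs and 0 counts in every rBMSCs library. It was at least 197.3-fold higher in rEEOs against a floor of 3 counts per rBMSCs library. Sema4g had 29.9, 7.71 and 8.5 TPM in rEEOs and 1.58, 1.65 and 1.93 TPM in rBMSCs. Replicate 1 stood above the other rEEOs libraries, but the groups did not overlap (log2 fold change 3.29 ± 0.45, edgeR adjusted p = 0.00101), and the value without replicate 1 was 2.68. Sema4f was called higher at 0.88 to 1.7 TPM in rEEOs and at most 0.17 TPM in rBMSCs, and Sema4c, at 7.64 to 10.1 TPM in rEEOs and 11.5 to 13.1 TPM in rBMSCs, did not pass the test (edgeR adjusted p = 0.198).

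The other semaphorin classes showed no common direction. Sema5a was called lower (0 to 0.31 TPM in rEEOs, 2.39 to 3.08 TPM in rBMSCs), with a log2 fold change of -4.32 ± 0.92 that was -5.98 without rEEOs replicate 1. Sema6b was called higher, with 99 counts over the rEEOs libraries and 1 count over the rBMSCs libraries, a ratio of 98.8 with a 95% exact interval of 17.3 to 3940 that covers counting error only, and the 1 count was in replicate 1. Sema6c was higher (log2 fold change 1.74 ± 0.27) and Sema6a lower (-0.76 ± 0.15) by the adjusted p alone. Sema6d had 2.56, 11.4 and 2.14 TPM in rEEOs and 1.8 to 2.11 TPM in rBMSCs, and it did not pass (log2 fold change 1.70 ± 0.72, edgeR adjusted p = 0.0791). Replicate 2 alone was high, and without it the log2 fold change was 0.38. Without replicate 1, in contrast, Sema6d was called higher at 2.11 (edgeR adjusted p = 0.0187). Sema7a, a lipid-anchored semaphorin, had 6.31, 7.8 and 18.0 TPM in rEEOs and 25.6 to 27.8 TPM in rBMSCs, with an edgeR adjusted p of 0.142 and a log2 fold change of -0.91 that was -1.62 and passed without rEEOs replicate 3 (edgeR adjusted p = 0.00975). Of the TPM of the semaphorins held, class 3 genes took 71.5%, 68.3% and 71.1% in rBMSCs and 0.842%, 0.426% and 0.409% in rEEOs. Class 4 genes took 9.65%, 10.3% and 9.76% in rBMSCs and 90.3%, 79.6% and 76.0% in rEEOs.

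Both neuropilins and Plxdc2 were called lower in rEEOs, whereas of the 4 plexins tested 1 was called lower, 1 was called higher and 2 did not pass. Nrp1, a co-receptor for class 3 semaphorins and vascular endothelial growth factor, had 57.5, 45.1 and 58.9 TPM in rBMSCs and 0.44, 0.23 and 0.27 TPM in rEEOs. The groups were far apart, with a log2 fold change of -7.06 ± 0.18 (edgeR adjusted p = 4.59e-06). Nrp2, the other neuropilin, had 120.2, 95.2 and 111.3 TPM in rBMSCs and 24.7, 3.55 and 4.03 TPM in rEEOs. Replicate 1 was the highest rEEOs library and still below all rBMSCs libraries, with a log2 fold change of -3.18 ± 0.58 (edgeR adjusted p = 0.00339) and of -4.10 without it. Plxnd1, the receptor of semaphorin-3E, had 19.9, 17 and 17.8 TPM in rBMSCs and 0.95, 0.14 and 0.18 TPM in rEEOs. Its log2 fold change was -5.31 ± 0.60 (edgeR adjusted p = 0.000426) and -6.36 without rEEOs replicate 1, so ligand and receptor were both called lower. Plxdc2, a membrane protein with a plexin-like domain, had 107.0, 100.8 and 98.2 TPM in rBMSCs and 4.85, 5.69 and 8.65 TPM in rEEOs. No rEEOs library came near rBMSCs (log2 fold change -3.48 ± 0.35, edgeR adjusted p = 0.000265).

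Plxnb2, a receptor of class 4 semaphorins, was the most abundant plexin of both cell types, with 176.1, 156.6 and 168.2 TPM in rBMSCs and 209.3, 84.6 and 96.0 TPM in rEEOs. Replicate 1 was above all rBMSCs libraries and the other rEEOs libraries below them, and the log2 fold change of -0.19 ± 0.24 did not pass (edgeR adjusted p = 0.515) and was 0.21 when libraries were scaled by their totals alone. Without rEEOs replicate 1 it was -0.45 and passed (edgeR adjusted p = 0.00492), with a fold change short of a call. Among the 4 plexins it took 89.0% to 89.7% of the TPM in rBMSCs and 95.3% to 96.6% in rEEOs. Plxnb1, the receptor of semaphorin-4D, was called higher, at 5.01, 3.4 and 2.71 TPM in rEEOs and 0.95, 0.89 and 1.02 TPM in rBMSCs. The groups did not overlap (log2 fold change 2.19 ± 0.19, edgeR adjusted p = 0.000138), but with limma on log2(TPM + 1) the difference was 1.24, under the threshold. Plxna2 had 2.13, 0.61 and 0.45 TPM in rEEOs and 0.47 to 0.85 TPM in rBMSCs, and it did not pass (edgeR adjusted p = 0.172).

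Netrins, RGMs and their receptors had no gene called higher, while 2 of 6 tested were called lower and 3 were lower by the adjusted p alone. Of all genes 16.3% were called higher and 13.3% lower, so the lack of a higher call among 6 genes says little. Unc5b, a netrin receptor also known from endothelium, had 332.6, 292.5 and 348.9 TPM in rBMSCs and 0.68, 0.27 and 0.2 TPM in rEEOs. Its log2 fold change of -9.50 ± 0.36 (edgeR adjusted p = 7.54e-06) separated every library, and Unc5b alone was 23.0%, 23.2% and 24.4% of the summed TPM of all guidance genes in rBMSCs and at most 0.0766% in rEEOs. Neo1, neogenin, which binds netrins and RGMs, had 26.6, 24.2 and 27.0 TPM in rBMSCs and 11.2, 4.49 and 5.48 TPM in rEEOs (mean 7.07 TPM), where it and Rgma (mean 6.97 TPM) led their group. The groups did not overlap, and the log2 fold change of -1.70 ± 0.23 (edgeR adjusted p = 0.000865) was short of a call. The neogenin ligands Rgma and Rgmb were also lower by the adjusted p alone (log2 fold changes -1.72 ± 0.23 and -1.16 ± 0.26), at 5.84 to 8.57 and 2.04 to 5.69 TPM in rEEOs. Ntn3, a netrin, was called lower with 318 counts over the rBMSCs libraries and 3 over the rEEOs libraries, a ratio of 106.2 with a 95% exact interval of 36.0 to 517.9. Ntn4, a laminin-binding netrin, had 0.66 to 1.76 TPM in rEEOs and 0.69 to 1.14 TPM in rBMSCs, and the groups overlapped (edgeR adjusted p = 0.174).

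Slit and Robo genes were mostly lower in rEEOs, with 4 of 6 tested called lower and none called higher, the Srgap genes included. Of all genes 13.3% were called lower and 16.3% higher. Robo2, a Slit receptor, had 11, 8.7 and 11.4 TPM in rBMSCs and 0 counts in each rEEOs library, at least 346.4-fold lower against 3 counts per library. Robo1, the related receptor, was called lower with 0.26, 0.02 and 0.09 TPM in rEEOs and 1.63 to 1.98 TPM in rBMSCs, and its log2 fold change of -3.68 ± 0.70 was -4.69 without rEEOs replicate 1. Slit3, a secreted Slit, had 378 counts over the rBMSCs libraries and 1 over the rEEOs libraries, a ratio of 378.9 with a 95% exact interval of 67.6 to 15003, and the 1 count was in replicate 3. Both Robo receptors and the 1 Slit gene tested were thus low or at 0 in rEEOs. Srgap3, a GTPase-activating protein that binds Robo1, had 5.64, 3.85 and 6.05 TPM in rBMSCs and 0.24, 0 and 0.09 TPM in rEEOs. The groups did not overlap (log2 fold change -5.40 ± 0.73, edgeR adjusted p = 0.000954), and the value was -6.49 without rEEOs replicate 1. Srgap2 was the most abundant gene of the group in both cell types, at 22.7, 18.8 and 21.9 TPM in rBMSCs and 17.3, 13.1 and 9.62 TPM in rEEOs. It did not pass the test (log2 fold change -0.45 ± 0.17, edgeR adjusted p = 0.0595), although its TPM values did not overlap, and it passed without rEEOs replicate 1 at -0.51 (edgeR adjusted p = 0.0209). Srgap1 was higher by the adjusted p alone (log2 fold change 1.36 ± 0.29), at 2.08 to 7.36 TPM in rEEOs and 1.44 to 1.77 TPM in rBMSCs.

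Dpysl2, a cytosolic protein of semaphorin-3A signalling that binds tubulin, had 122.6, 112.0 and 117.8 TPM in rBMSCs and 52.6, 10.4 and 10.8 TPM in rEEOs. Replicate 1 lay between the other rEEOs libraries and rBMSCs. The log2 fold change of -2.17 ± 0.53 (edgeR adjusted p = 0.0118) was called, at -3.04 without rEEOs replicate 1, but was -1.85 without replicate 2 and -1.87 without replicate 3, both under the threshold.

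The 5 guidance genes that did not pass the filter, and so were not tested, were low in every library: Ntn1 (0.16 to 1.25 TPM), Ntng2 (at most 0.44 TPM), Efnb3 (at most 0.14 TPM), Slit1 (at most 0.11 TPM, 0 counts in rBMSCs) and Sema3g (at most 0.45 TPM). With a filter of 1 count in any library, Slit1 passed with an edgeR adjusted p of 0.0432 on 11 counts in all and was at least 1.26-fold higher in rEEOs against 3 counts per rBMSCs library. Sema3g had a log2 fold change of 1.98 with an edgeR adjusted p of 0.0296, and the other 3 did not pass.

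rEEOs replicate 1 stood apart in some of these genes. In 11 of the 49 genes tested (22.4%) its level (CPM) was over 2 times those of both other rEEOs libraries, against 10.3% of all genes, and in 0 genes it was under 1/2 of both, against 7.22% of all genes. The 11 genes were Efnb2, Ephb2, Sema3d, Sema4g, Sema5a, Nrp2, Plxna2, Plxnd1, Robo1, Srgap3 and Dpysl2. Of these, 8 were called lower and 1 higher, a split that was not counted over all genes. Beside this, the mesenchymal markers summed to 270.6 TPM in replicate 1 and to 336.1 and 286.7 TPM in replicates 2 and 3, while the smooth muscle markers summed to 12.9, 3.55 and 6.02 TPM, with 1 of their 5 genes at 0 in all rEEOs libraries. Single genes carried these sums: Vim had 171.1, 297.5 and 227.4 TPM, Cd44 had 98.6, 35.7 and 50.1 TPM, and Smtn had 11.1, 2.62 and 3.96 TPM. The gland epithelium list summed to 6106, 5431 and 6173 TPM, but single genes in it differed in replicate 1 in both directions. Cdh1 had 337.6, 107.6 and 136.7 TPM, whereas Cldn4 had 108.1, 534.7 and 500.4 TPM. The endothelial list was at 0.4, 0.1 and 0.13 TPM. The haematopoietic list, with 5 of its 8 genes held, was at 0.53, 1.64 and 1.25 TPM. The list of neurons and glia was at 0.1, 0 and 0.22 TPM. The part of all these markers in the replicate 1 levels was not tested. Without replicate 1, 13 guidance genes were called higher and 19 lower, against 12 and 19 with it. Of all genes, 1823 were then called higher and 1665 lower, against 1733 and 1412 with it.

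**Figure D4:**
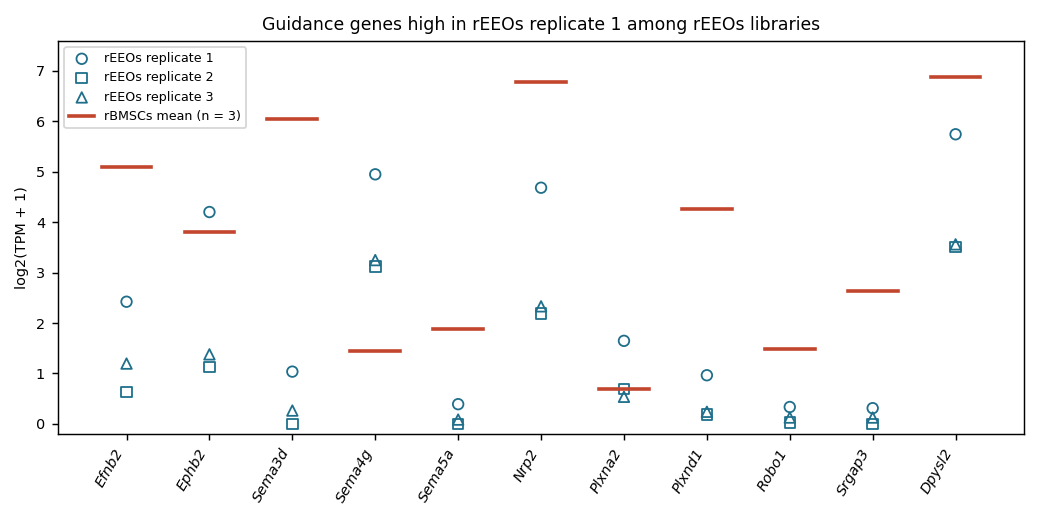
Levels as log2(TPM + 1) of the 11 genes in which rEEOs replicate 1 was over 2 times both other rEEOs libraries, with 1 marker shape per rEEOs replicate and a red line for the rBMSCs mean (n = 3). In 8 genes, from Efnb2 to Dpysl2, replicate 1 lies between the other rEEOs libraries and the rBMSCs mean, and in Ephb2, Sema4g and Plxna2 it lies above that mean.

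Other genes that did not match by symbol, a list of 86 chosen as cytoplasmic effectors, co-receptors and alternative ligands of these pathways, were counted in the same test. Of these, 67 were held and 60 tested, with 7 called higher (11.7%, against 16.3% of all genes) and 16 called lower (26.7%, against 13.3%) in rEEOs. By the adjusted p alone 9 more were higher and 16 lower, and 12 did not pass. Ngef, ephexin-1, an exchange factor that acts downstream of EphA receptors, had 48.8, 31.1 and 35.9 TPM in rEEOs and at most 0.12 TPM in rBMSCs (log2 fold change 9.34 ± 0.31, and 10 without rBMSCs replicate 1). Timd2, a receptor described for semaphorin-4A, had 28.5, 161.9 and 137.3 TPM in rEEOs and at most 0.19 TPM in rBMSCs, a pooled ratio of 1421 with a 95% exact interval of 486.1 to 6895. Its fitted log2 fold change of 10.45 was 11.32 without rBMSCs replicate 3. Both, named for their extreme fold change, were at least 28.5 TPM in every rEEOs library and below 1 TPM in every rBMSCs library.

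In the other direction, Adgra2 had 188.1, 172.6 and 194.4 TPM in rBMSCs and at most 0.03 TPM in rEEOs. The pooled ratio was 10976 with a 95% exact interval of 3755 to 53225. Adgra2 is an adhesion G protein-coupled receptor of vessels, on the list but not a known effector, co-receptor or ligand of these families. Its fitted log2 fold change of -13.24 was -12.53 without rEEOs replicate 1 and -14.15 without replicate 2. Flrt2, a membrane ligand of Unc5 receptors, had 20.8, 16.3 and 19.9 TPM in rBMSCs and 0 counts in rEEOs, at least 369.3-fold lower against 3 counts per library. Gpc1, a glypican that binds Slits, had 333.2, 317.8 and 326.5 TPM in rBMSCs and 0.88, 0.12 and 0.25 TPM in rEEOs, with a log2 fold change of -9.45 ± 0.59 that was -10.33 without rEEOs replicate 1. All 3 had no overlap between the cell types, as had 69.6% of all genes tested. They were named for their extreme fold change, so this adds nothing to it.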

How the data were processed

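Gene expression was measured by single-end RNA-seq on a BGISEQ platform in 3 rEEOs and 3 rBMSCs libraries, grouped by their titles. The authors trimmed reads with Trim Galore, aligned them with Bowtie2 (version 2.2.5, and the genome build Rnor_6.0, per the submitters' processing notes) and estimated expression with RSEM. They deposited expected counts, TPM and FPKM per gene. FPKM was a constant multiple of TPM in each library and was not used further, nor were the authors' group means. The table as held for this work stops within its final row and has 13728 genes with 81.3% to 82.7% of each library's TPM, so shares cover the genes held. The annotation is not given in the sources used here. Symbols and gene IDs of all 54 genes matched RefSeq (GRCr8), which was used for names and promoter windows only.

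Expected counts were rounded and tested in edgeR (version 4.0.16, R 4.3.3) with TMM scaling, a filter of 10 counts in at least 3 libraries and glmQLFTest. Calls followed the thresholds of the study (absolute log2 fold change over 2, adjusted p under 0.05). SEs were the log2 fold change divided by the root of F. Bounds used a floor of 3 counts per library, and intervals (95%, exact) cover counting error only. An exact permutation test of 3 against 3 libraries cannot go below p = 0.1, so none was used. Replicates of a cell type differed by more than sampling noise (chi-square per degree of freedom 3.0 to 9.5 in rBMSCs and 53.7 to 218.4 in rEEOs) and were counted separately.

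Genes given with every library's TPM were those called with a mean of at least 5 TPM in the higher cell type and the most abundant gene of each role in each cell type. Further genes were named to account for all members, after their values were seen. Partner genes were named at both extremes of the log2 fold change (3 each) among those called with at least 10 TPM, of which 1 is not reported here. The genes, lists and tests were chosen with earlier results of these data known. Alternatives were DESeq2 (version 1.42.0), DESeq2 size factors, scaling by library totals, other filters and thresholds, limma (version 3.58.1) on log2(TPM + 1) and log2(TPM + 0.1), a replicate block and leaving out each library.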

Additional observations from a re-analysis of the deposited data

How the results depend on the processing

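The guidance genes called higher numbered 8 to 15 and those called lower 14 to 25 over all alternatives, and 12 to 13 and 18 to 19 when 1 library was left out. Of all genes, 1698 to 1823 were called higher and 1317 to 1665 lower when 1 library was left out. Of the 31 called genes, 23 kept the call in every refit in which they were tested (15, or 12 for Epha3, Sema4f and Sema6b). The other 8 (Efna2, Efna3, Ephb3, Sema5a, Plxnb1, Robo1, Slit3 and Dpysl2) lost it in at least 1. Efna2, Efna3, Sema5a, Robo1 and Slit3 lost it only with limma on log2(TPM + 1). With 1 added, a gene whose mean is under 3 TPM in both cell types, as theirs are, cannot reach a log2 difference of 2. The causes for Ephb3, Plxnb1 and Dpysl2 were not tested. Of the 9 genes past the adjusted p alone, 6 (Efna4, Efnb1, Epha4, Sema6a, Rgmb and Srgap1) did not pass it in at least 1 alternative. The alternatives include a test against a fold change of 2. A log2 fold change under 1, as for Sema6a (-0.76), cannot pass that test. Efna4, Epha4 and Rgmb also did not pass in other alternatives. Scaling by library totals alone shifted the median log2 fold change of all genes by 0.38, and limma on log2(TPM + 1) by -0.28. With that scaling Sema4c turned to 0.14 and Plxnb2 to 0.21. Ephb4 turned to -0.17 and -0.19 with limma on log2(TPM + 1) and log2(TPM + 0.1), and ran from -0.22 (without rEEOs replicate 1) to 0.51 (without rEEOs replicate 3) when 1 library was left out. None of these 3 genes passed the test at first. With a threshold of 1 on the log2 fold change, or with none, more genes pass by construction: 14 and 16 partner genes were called higher and 28 and 32 lower, and of all genes 2663 and 3529 were higher and 2287 and 3199 lower. limma on log2(TPM + 1), where the added 1 limits differences at low TPM, called 1121 genes higher. The cause of the last was not tested.

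Same-numbered libraries of the cell types share only a number (correlations of their deviations 0.14, 0.16 and -0.13). With the replicate block, 12 guidance genes were higher and 19 lower, with 1710 and 1521 of all genes. Each cell type has 3 libraries, and levels under 3 counts (0.181 to 0.262 CPM) could not be told from 0.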
